A study of Mus musculus with 8 samples.

Results

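Leukocytes leave the blood in steps, and the 9 genes described here encode parts of that machinery. Selectins on the vessel wall (Sele, Selp) catch passing leukocytes by sugar-bearing ligands such as the one encoded by Selplg, and immunoglobulin-type adhesion molecules (Icam1, Icam2, Vcam1) then hold them by integrins (chains encoded by Itgb2, Itgam and Itga4). In inflamed skin, cytokines are known to induce several of the vascular genes, and ICAM-1 is also made by activated keratinocytes and leukocytes. The 9 genes were taken by symbol from the platform's probe annotation, which gave 17 of the 45101 probe sets in the table, for 9 of 18193 genes with a probe set of their own. Icam1 rose in DNCB-treated skin, from a mean log2 signal of 4.08 in sham to 5.93, and it was the member that passed the test. With HY209 its mean was 5.87. The Icam1 call depended on the fit and on single arrays, and its signal lay under the array median on both sham arrays. Selp, Icam2, Itgb2, the brightest probe set of Itga4 and a dim one of Vcam1 had higher values on all DNCB arrays than on both sham arrays without passing. Of all probe sets that are not controls, 14.2% lay higher in that way. The Itga4 arrays barely parted. The brightest probe set of Vcam1 overlapped, as did the remaining ones of Vcam1 and Itga4 and the dimmest of Selp. Sele, Selplg and Itgam had overlapping DNCB and sham arrays.

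Dorsal skin of Balb/c mice was profiled on 8 Affymetrix arrays, 1 per sample. In the DNCB group (n = 3, titled DNCB_HY209(-)) the hapten DNCB (1-chloro-2,4-dinitrobenzene), a contact sensitizer used to model atopic dermatitis, was put on the skin for 15 days, with vehicle over the last 7 days. The DNCB+HY209 group (n = 3, titled DNCB_HY209(+)) received a PEG gel with 5% HY209, an agonist of a bile acid receptor, in place of vehicle over those 7 days. Sham samples (n = 2) are those whose titles and source names give neither agent, although their protocol fields carry the DNCB text of the other samples. Age is not named in the labels used here. They do not say whether each array stands for its own mouse, so a p-value here speaks only of the scatter among these samples, which may be technical.

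Values are log2 signals as deposited. The median of an array ran from 4.07 to 4.22, and a probe set below it is called dim here, because no detection calls were analysed. Of the 17 probe sets, 4 lay above the median on all 8 arrays, 4 lay below it on all, and 9 did both. A gene entered the test if a probe set lay above the median on at least 2 arrays, and its brightest such probe set stood for it. By this rule 7 members were among the 12420 genes tested, and Sele and Itgam were not. Icam1, Icam2 and Itgb2 were dim on both sham arrays and passed the rule through DNCB-treated arrays, so for them the direction against sham was partly set by the rule. Two-sided limma tests came from a fit of the whole set of arrays, and p-values were adjusted by Benjamini-Hochberg across the 12420 genes, with 0.05 as the threshold. Keratinocyte markers were bright throughout, with a mean log2 signal of 10 genes from 10.21 to 11.83, as in skin.

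The arrays differed technically. Bacterial RNA added in fixed amount before hybridization (the spike-in) had a mean log2 signal of 11.68 ± 0.47 (SD, n = 2) on sham arrays. On DNCB arrays it was 10.65 ± 0.86 (n = 3), and with HY209 it was 10.64 ± 0.54 (n = 3). It was lowest on DNCB array 2, at 9.67, and that array held the highest value of 8 of the 17 member probe sets. A measure of RNA integrity, the Gapdh signal at the 3' end over that at the 5' end, was highest on DNCB array 3, at 7.35, against 2.10 to 4.46 on the others.

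**Figure D1:**
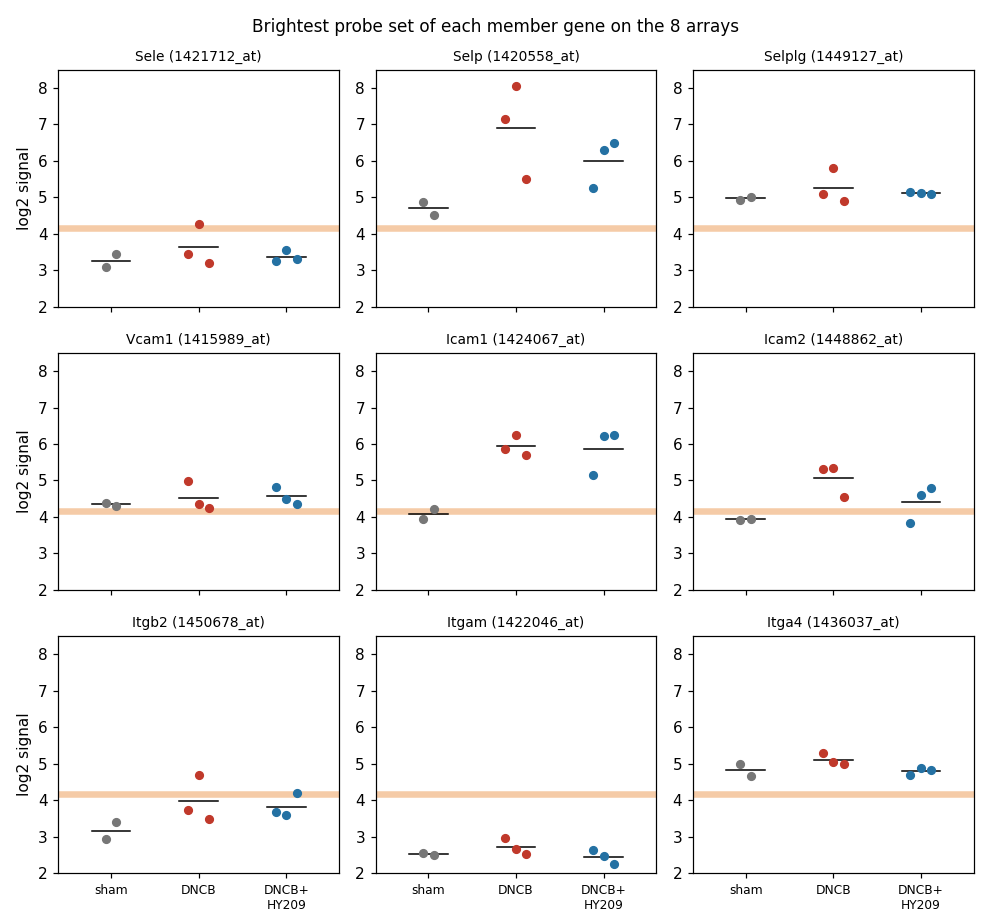
Log2 signal of the brightest probe set of each member gene (y axis) in sham, DNCB and DNCB+HY209 skin (x axis), with 1 point per array, the group mean as a black line and the range of the array medians as an orange band. All DNCB and DNCB+HY209 points of Icam1 lie at 5.15 or above and both sham points at 4.21 or below, whereas those of Itgam lie under the band on every array.

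In all, 1 of the 7 tested members was called higher in DNCB than in sham and 0 lower, where 1.37% of all genes tested were called higher and 0.459% lower. Over all 17 probe sets with no filter, 7 had every DNCB array above both sham arrays and 0 had every one below. Of all 45037 probe sets that are not controls, 14.2% lay above and 16.3% below in that way. The median log2 difference of the 17 was 0.29, against -0.03 over all probe sets. Alternatives for that median were added after the data were examined, and it was 0.19 without DNCB array 2 and sham array 2, and 0.10, against -0.21 over all probe sets, when arrays were scaled to a common trimmed mean. In bulk skin, more cells of a type and more RNA per cell cannot be told apart.

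Selectins come first in the order of capture. P-selectin, encoded by Selp, is stored in endothelial cells and platelets and is moved to the cell surface on activation. Its brightest probe set (1420558_at) had log2 signals of 4.87 and 4.53 in sham, 7.14, 8.04 and 5.50 in DNCB, and 5.26, 6.29 and 6.48 in DNCB+HY209. All DNCB and DNCB+HY209 arrays lay above both sham arrays, and within DNCB array 3 lay far under the other two. The log2 difference between DNCB and sham was 2.20 (SE 0.65, limma adjusted p = 0.155), which did not pass. Without DNCB array 3 it was 2.89 and passed (adjusted p = 0.0298), and without DNCB array 2 it was 1.62 (adjusted p = 0.347). It was 1.45 without DNCB array 2 and sham array 2, 1.40 with probe sets averaged and 1.01 with the spike-in as a covariate (adjusted p = 0.646).

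The other probe sets of Selp were dimmer. The second (1449906_at) had signals of 3.74 and 3.63 in sham, 4.86, 5.95 and 4.18 in DNCB, and 4.25, 4.49 and 3.84 in DNCB+HY209. All DNCB arrays again lay above sham, with a log2 difference of 1.31 (SE 0.42, adjusted p = 0.256 in the fit of every probe set). The third (1440173_x_at) had values from 3.57 to 5.58, with DNCB array 2 alone above 4.16, and groups that overlapped (0.68, SE 0.48). The mean differences of the Selp probe sets were all positive, but that of the third rested on DNCB array 2. Its DNCB arrays 1 and 3 had 3.85 and 3.57, against 3.57 and 3.73 in sham.

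E-selectin, encoded by Sele, is made by endothelial cells after cytokine stimulation and binds skin-homing T cells. Its single probe set (1421712_at) was dim on 7 of the 8 arrays, with signals of 3.08 and 3.45 in sham, 3.44, 4.26 and 3.19 in DNCB, and 3.26, 3.57 and 3.30 in DNCB+HY209. The groups overlapped, and only DNCB array 2 exceeded its array median. The log2 difference of DNCB against sham was 0.37 (SE 0.29, adjusted p = 0.572 in the fit of every probe set), a value near the floor of these arrays.

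Selplg encodes PSGL-1, the ligand that leukocytes present to P-selectin. Its probe set (1449127_at) was above the median on every array, with signals of 4.94 and 5.01 in sham, 5.09, 5.79 and 4.91 in DNCB, and 5.14, 5.12 and 5.10 in DNCB+HY209. DNCB array 2 stood above the rest, which lay between 4.91 and 5.14. The difference between DNCB and sham was 0.29 (SE 0.26, adjusted p = 0.558), with a 95% interval from -0.30 to 0.88.

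Icam1, which encodes the ligand of the beta-2 integrins, was the member that rose. Its probe set (1424067_at) gave 3.95 and 4.21 in sham, 5.86, 6.24 and 5.71 in DNCB, and 5.15, 6.21 and 6.25 in DNCB+HY209. Every array of treated skin lay above both sham arrays, and within DNCB+HY209 array 1 lay lowest. The log2 difference of DNCB against sham was 1.85 (SE 0.34, 95% interval 1.07 to 2.63, adjusted p = 0.0372), about 3.60-fold, and approximate because sham was dim. Under 3 other scalings it was 1.66 to 1.91 and still called, while the median difference of all genes, 0.15 as deposited, ranged from -0.03 to 0.21. The call depended on the fit and on single arrays. In the fit of every probe set with no filter the adjusted p was 0.0516, and with the replicate number as a block 0.0877. Leaving out 1 array gave 1.70 to 1.98, but the adjusted p was 0.149 and 0.154 without sham array 1 or 2, 0.122 and 0.110 without DNCB array 1 or 2, and 0.0658 without DNCB+HY209 array 2.

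The spike-in level moved with this result. With it as a covariate the Icam1 difference was 1.38 (adjusted p = 0.216), and without DNCB array 2 and sham array 2 it was 1.83 (adjusted p = 0.297). Among the 4 arrays with spike-in levels between 11.09 and 11.35, Icam1 had 3.95 on sham array 1, 5.15 on DNCB+HY209 array 1, 5.71 on DNCB array 3 and 5.86 on DNCB array 1. On the same arrays, in that order, Selp had 4.87, 5.26, 5.50 and 7.14, and Icam2 had 3.91, 3.84, 4.54 and 5.32. Only 1 of the 4 arrays is a sham array. The part of the spike-in level in the Icam1 result was not tested beyond the covariate fit.

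**Figure D2:**
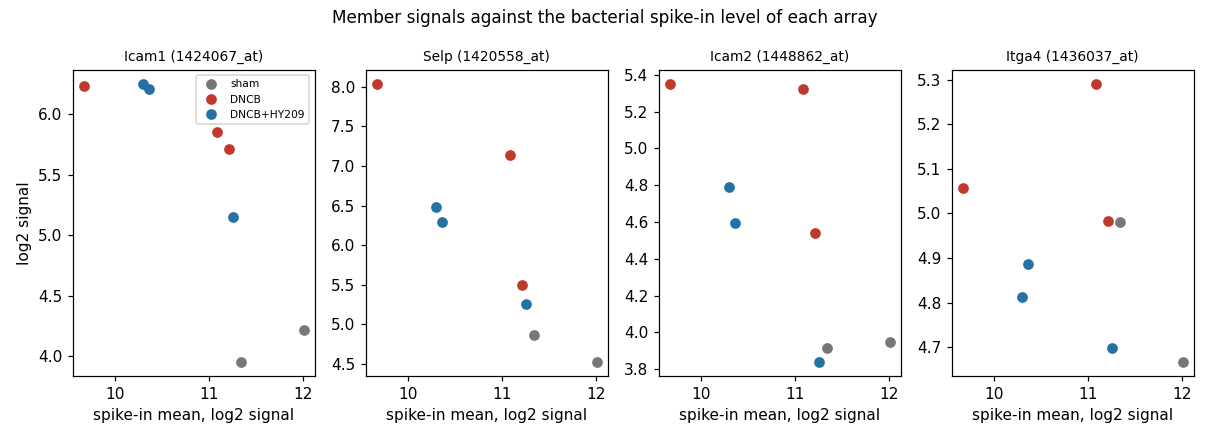
Log2 signal (y axis) against the mean spike-in level of the array, also in log2 (x axis) for Icam1, Selp, Icam2 and Itga4, with 1 point per array coloured by group. DNCB array 2, at a spike-in level of 9.67, holds the highest Selp signal, 8.04, and sham array 2, at 12.01, the lowest, 4.53.

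The promoters of Sele, Selp and Icam1 are shown as those of the vascular members that had an entry in the promoter table. They are the 250 bases before the start in RefSeq (GRCm38.p6), all on the plus strand, at chr1:164047984-164048233 for Sele, chr1:164115014-164115263 for Selp and chr9:21015690-21015939 for Icam1. Of the 9 members, Itgam and Itga4 also had an entry. Capitals mark matches to AP-1 (TGANTCA), GAS (TTCNNNGAA) and GGANNTTCC on either strand, or to TATAAA on the gene's strand. GGANNTTCC, letters like those of a kappaB site, was added after the sequences were seen.
Sele: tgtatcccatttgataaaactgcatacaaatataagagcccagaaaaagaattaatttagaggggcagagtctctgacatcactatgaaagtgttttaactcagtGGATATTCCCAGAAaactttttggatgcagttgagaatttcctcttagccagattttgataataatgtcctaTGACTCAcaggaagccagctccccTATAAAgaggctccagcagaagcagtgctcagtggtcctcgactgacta
Selp: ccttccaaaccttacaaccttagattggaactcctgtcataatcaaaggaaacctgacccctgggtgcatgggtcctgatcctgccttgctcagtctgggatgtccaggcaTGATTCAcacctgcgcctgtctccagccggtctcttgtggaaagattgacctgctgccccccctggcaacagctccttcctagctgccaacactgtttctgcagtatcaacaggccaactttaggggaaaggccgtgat
Icam1: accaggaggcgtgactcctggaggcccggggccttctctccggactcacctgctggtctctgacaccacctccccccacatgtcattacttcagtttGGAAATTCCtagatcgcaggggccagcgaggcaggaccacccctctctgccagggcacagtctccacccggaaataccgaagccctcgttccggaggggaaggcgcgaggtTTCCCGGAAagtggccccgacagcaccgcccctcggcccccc

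Icam1 held GGAAATTCC at positions -153 to -145 relative to the start and a GAS match at -42 to -34. Sele held GGATATTCC, a GAS match that overlaps it, an AP-1 match and a TATAAA box, and Selp held 1 AP-1 match. A fuller kappaB motif searched by name had no match in these windows. Of 32536 different promoter windows of this length, 3.59% held GGANNTTCC, 7.04% GAS, 6.73% AP-1, 7.55% TATAAA and 3.92% the fuller kappaB motif. These matches describe letters and were not tested against the signals.

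Icam2, which endothelial cells express at rest, had its probe set (1448862_at) at 3.91 and 3.95 in sham, at 5.32, 5.35 and 4.54 in DNCB, and at 3.84, 4.59 and 4.79 in DNCB+HY209. DNCB lay above sham on every array, while DNCB+HY209 array 1 lay below both sham arrays. The difference between DNCB and sham was 1.14 (SE 0.34, adjusted p = 0.151). It passed with the Gapdh ratio as a covariate (1.13, adjusted p = 0.0480), as did Selp (2.18, adjusted p = 0.0189), and it was 0.70 with the spike-in as a covariate (adjusted p = 0.648).

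Vcam1 encodes the endothelial ligand of the integrin that holds the alpha-4 chain, and its 3 probe sets differed in size. The brightest (1415989_at), used in the gene fit, had 4.40 and 4.30 in sham, 4.98, 4.35 and 4.23 in DNCB, and 4.83, 4.50 and 4.36 in DNCB+HY209, with overlapping groups and a difference of 0.17 (SE 0.26, adjusted p = 0.732). The dimmest (1448162_at) had 2.88 and 2.50 in sham, 4.18, 4.41 and 3.10 in DNCB, and 2.90, 3.41 and 3.42 in DNCB+HY209. All its treated arrays lay above sham, with a difference of 1.20 (SE 0.34, adjusted p = 0.206 in the fit of every probe set), although it exceeded its array median on DNCB array 2 alone. The last (1451314_a_at) lay between 3.81 and 4.25, with a difference of 0.01 (SE 0.18). Across the 8 arrays the 3 probe sets correlated with each other at r of 0.12 to 0.30, given without a test. All 3 differences were positive, by 0.01 to 1.20, and none passed. Trimmed-mean scaling turned the difference of the brightest one to -0.014.

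Of the integrin chains, Itgb2 encodes the beta-2 chain shared by the leukocyte integrins that bind ICAM-1. Its probe set (1450678_at) had 2.92 and 3.40 in sham, 3.72, 4.68 and 3.49 in DNCB, and 3.67, 3.58 and 4.20 in DNCB+HY209. Both treated groups lay above sham with no overlap, at signals that were dim on 6 of the 8 arrays. The difference between DNCB and sham was 0.81 (SE 0.36, adjusted p = 0.305), with 0.45 without DNCB array 2 and 0.32 with the spike-in as a covariate. Itgam encodes the alpha-M chain of neutrophils and macrophages (CD11b), and its probe set (1422046_at) was dim on all arrays, from 2.25 to 2.96, with overlapping groups. A transcript in few cells and a probe set that responds poorly cannot be told apart at that level.

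Itga4 encodes the alpha-4 chain of the integrins that bind VCAM-1 on lymphocytes, monocytes and eosinophils. Of its 5 probe sets, 3 were dim on all arrays and a further one (1456498_at) on all but sham array 2. The one above the median throughout (1436037_at) had 4.98 and 4.67 in sham, 5.29, 5.06 and 4.98 in DNCB, and 4.70, 4.89 and 4.81 in DNCB+HY209. The DNCB arrays lay barely above sham, with DNCB array 3 and sham array 1 equal to 2 decimals. The difference between DNCB and sham was 0.29 (SE 0.19, adjusted p = 0.444), and that of the dim 1456498_at was -0.59 (SE 0.33), in the other direction.

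**Figure D3:**
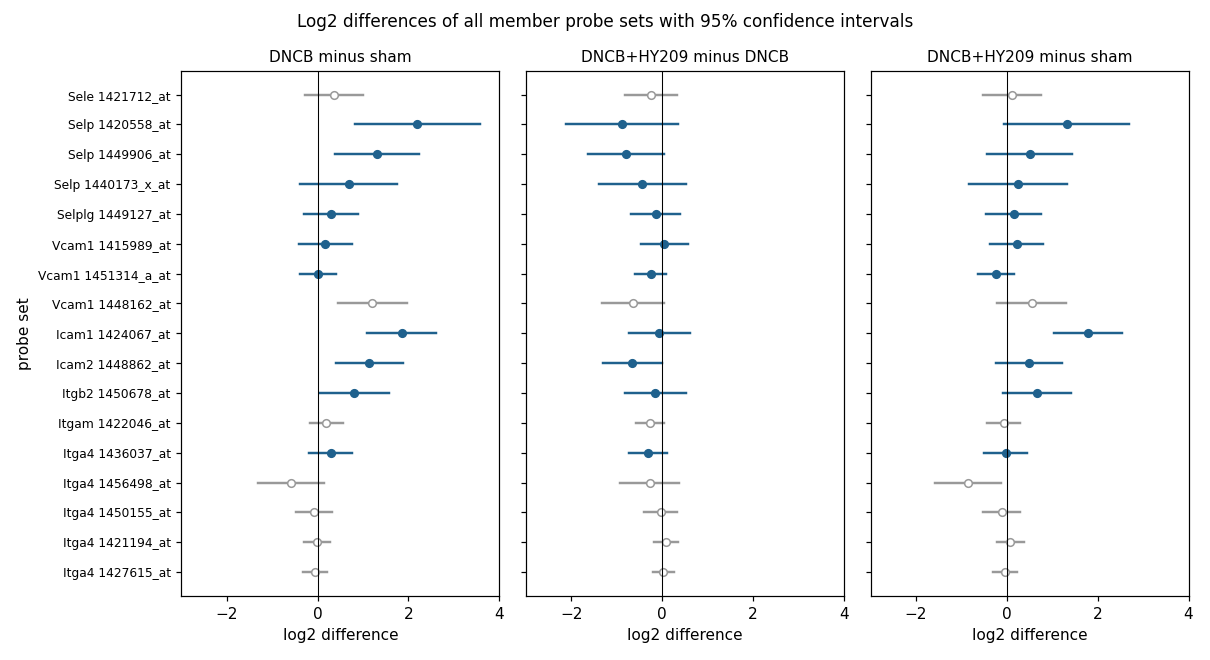
Log2 difference (x axis) of each of the 17 member probe sets (y axis) in the 3 comparisons, with 95% confidence intervals from the limma fit of all 45037 probe sets. Filled blue points were above the array median on at least 2 arrays and open grey points were not. The interval of Icam1 lies above 0 in both comparisons with sham and spans 0 for DNCB+HY209 against DNCB.

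The comparison of HY209 gel with vehicle asked whether treatment altered these genes in DNCB skin, and it shares the DNCB arrays with the comparison above. None of the 7 members was called by limma, with 0 of 12420 genes called in all (0%), and in this gene fit 0 members had an unadjusted p under 0.05, against 161 genes (1.30%). Icam1 had a difference of -0.06 (SE 0.31) with a 95% interval from -0.76 to 0.63. That interval covers differences of either sign. Icam2 had a difference of -0.66 (SE 0.30, interval -1.34 to 0.02) and Selp of -0.88 (SE 0.58, interval -2.20 to 0.44), both with overlapping groups. In the fit of every probe set the Icam2 interval was -1.32 to -0.01 (unadjusted p = 0.0468 by limma). Single arrays moved both values, Selp to -0.31 without DNCB array 2, -1.58 without DNCB array 3 and -0.50 when DNCB+HY209 array 1 was left out, and Icam2 to -0.38 when that array was left out.

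Of the 17 probe sets, 2 had every DNCB+HY209 array below every DNCB array and 0 above, where 2.81% and 2.56% of all probe sets did. They were Itga4 1436037_at, with a difference of -0.31, and Vcam1 1451314_a_at, with -0.26. The median over the 17 was -0.26, with -0.003 over all probe sets. The 17 include several probe sets of the same gene, some of them dim on all arrays. In alternatives added after the data were examined, this median was -0.19 without DNCB array 2 and -0.36 without DNCB array 3. DNCB array 3 lay near the HY209 arrays in several members. For Selp it had 5.50, within the HY209 range of 5.26 to 6.48, and for Icam2 4.54, within 3.84 to 4.79, whereas for Icam1 all 3 DNCB arrays lay in the HY209 range.

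Against sham, 0 of the 7 members were called in DNCB+HY209 skin by limma, where 0.403% of all genes were (0.266% higher and 0.137% lower), in a comparison that shares sham arrays with the first and HY209 arrays with the second. Icam1 had a difference of 1.79 (SE 0.34, adjusted p = 0.0648), about 3.45-fold, with all 3 HY209 arrays above sham. It was the 1 member with an unadjusted p under 0.05, as 19.3% of all genes had. It passed without DNCB+HY209 array 1 (2.15, adjusted p = 0.00651). Selp differed by 1.31 (SE 0.65, adjusted p = 0.295), Itgb2 by 0.66 (SE 0.36, adjusted p = 0.330) and Icam2 by 0.48 (SE 0.34, adjusted p = 0.422). With the spike-in as a covariate these differences were 0.11 for Selp, 0.17 for Itgb2 and 0.024 for Icam2. Without sham array 1 Itgb2 was 0.42, and Icam2 was 0.76 without DNCB+HY209 array 1 and 0.29 without array 3. Over the 17 probe sets 6 lay above sham without overlap and 2 below, where 17.4% and 20.3% of all probe sets did.

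Markers of the cells that make these molecules moved with the groups. Of 12 endothelial genes, 5 were called higher in DNCB and 0 lower, where 1.37% of all genes tested were called higher and 0.459% lower. The 5 were Cdh5 (2.20), Emcn (1.86), Plvap (1.83), Egfl7 (1.22) and Cldn5 (1.03), and the median difference of the 12 was 1.30. The mean log2 signal of the list was 4.58 to 4.69 in sham, 5.54 to 6.23 in DNCB and 5.07 to 5.55 in DNCB+HY209, and no gene of it fell under the filter. Of 9 pan-leukocyte genes tested, with Was under the filter, 3 rose, namely the leukocyte phosphatase gene Ptprc (CD45, 2.77), Coro1a (2.19) and Cd52 (2.04). In this list 8 differences between DNCB and sham lay above 0 and 1 below, that of Laptm5 (-0.51), which was not called. That list ran from 4.49 to 4.86 in sham, 5.67 to 6.15 in DNCB and 5.19 to 6.01 in DNCB+HY209. Among the called marker genes, Emcn and Ptprc had sham means of 3.12 and 3.29, under the array medians. For them the filter leaned on treated arrays, so the direction against sham was partly set by that rule.

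Other cell types gave few called genes. Of 11 macrophage and monocyte genes 0 were called, with a median difference of 1.07 between DNCB and sham. Of 10 keratinocyte genes 0 were called, with a median of 0.73, and 10 differences lay above 0 and 0 below. Few neutrophil and T cell markers were measured, 4 of 11 and 4 of 10, with medians of 0.23 and -0.07, and the neutrophil genes Ly6g and Mpo lay under the filter or had no probe set. Of 4 platelet genes, which bear on Selp, 0 were called, with a median of 0.43. Hair follicle genes, at 11 measured, had a median of -1.81, with 0 called. Of 8 fibroblast genes 1 rose, Pdgfrb (3.18), which pericytes also express, and of 10 skeletal muscle genes 1 rose, the myosin gene Myh2 (4.45). The fibroblast list had a median of 0.44, with 6 differences above 0 and 2 below. The muscle list had a median of 0.62, with 8 above 0 and 2 below. The part of these cell types in the member values was not tested.

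Set against the endothelial markers of the same array, the members parted. Icam1 minus the endothelial mean was -0.74 and -0.36 in sham, -0.30, 0.01 and 0.17 in DNCB, and 0.08, 0.69 and 0.70 in DNCB+HY209. It lay above sham on every treated array. With HY209 it was higher than with DNCB in the mean, by 0.53, with overlapping arrays. Icam1 itself differed by -0.06 (SE 0.31) in that comparison, while the endothelial mean was 5.98 in DNCB and 5.38 in DNCB+HY209, with 0 of the 12 markers called. For Selp the mean of signal minus endothelial mean was 0.86 higher in DNCB than in sham, with DNCB array 3 at the sham level (-0.05). Its other probe sets gave -0.03 and -0.66. For Icam2 the mean moved by -0.20. The probe sets of Vcam1 gave -1.17 (1415989_at, the one in the gene fit), -0.14 (1448162_at) and -1.33 (1451314_a_at), and Sele gave -0.97. All these means were lower in DNCB than in sham relative to the markers, with overlapping arrays for 1448162_at. Sele and 1448162_at exceeded the array median on 1 array each and 1451314_a_at on 2. A probe set near the floor lies lower against markers that rise, so such falls can be set in advance.

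**Figure D4:**
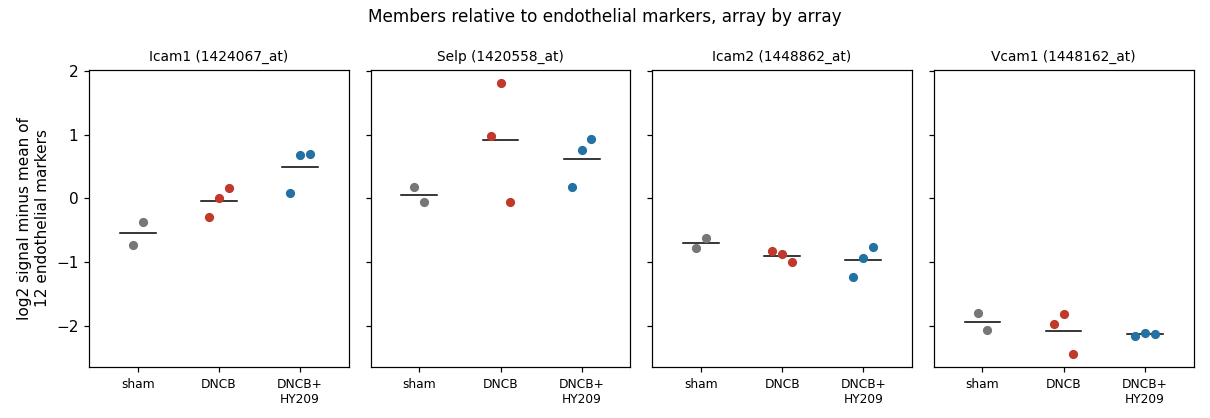
Log2 signal minus the mean log2 signal of 12 endothelial markers on the same array (y axis) for Icam1, Selp, Icam2 and the Vcam1 probe set with the largest difference between DNCB and sham, in the 3 groups (x axis), with 1 point per array and the group mean as a black line. Icam1 is higher relative to the markers on all treated arrays than on both sham arrays, and Icam2 stays between -1.23 and -0.63.

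Set against the pan-leukocyte markers in the same way, the leukocyte members were lower in DNCB than in sham. The change was -0.99 for Selplg, -0.996 for Itga4 1436037_at, -1.09 for Itgam and -0.48 for Itgb2, whose groups overlapped. The Itgam value rests on signals dim on all arrays. For Selplg the values were 0.45 and 0.15 in sham, -0.96, -0.36 and -0.76 in DNCB, and -0.05, -0.50 and -0.90 in DNCB+HY209, with every treated array below sham. A ratio of this kind shows unequal change and not which of its parts changed.

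Further genes of leukocyte adhesion, from lists set out by role, gave few calls. Of all genes tested, 1.37% were called higher in DNCB than in sham and 0.459% lower. Among 12 measured genes of the selectin pathway 1 rose in DNCB, Podxl, which encodes the sialomucin podocalyxin of vascular endothelium (2.15, SE 0.22, adjusted p = 0.0049). It also rose in DNCB+HY209 against sham (1.65, SE 0.22, adjusted p = 0.0225), where 0.266% of all genes tested were called higher. Of 16 other integrin subunits 0 were called, with a median of 0.45 against 0.15 over all genes. The 2 with the largest moderated t were Itgax, which encodes CD11c (0.74, SE 0.21, adjusted p = 0.130), and Itgb5 (0.90, SE 0.26, adjusted p = 0.151).

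Among 14 other immunoglobulin-type and junction genes 2 rose in DNCB, the endothelial cadherin gene Cdh5 (2.20, SE 0.34, adjusted p = 0.0230) and Mcam, which encodes CD146 of the vessel wall (1.70, SE 0.26, adjusted p = 0.0230). Cdh5 is also in the endothelial marker list above, so its call appears in both. Of 14 integrin activation genes 1 rose, Cyth1, which encodes cytohesin-1, a partner of the beta-2 chain (1.25, SE 0.21, adjusted p = 0.0300). With HY209 against DNCB 0 genes of the 4 lists were called, and the 2 of largest moderated t in each were Podxl (-0.50) and Cd34 (-0.66), Itga1 (-0.78) and Itga9 (-0.38), Cdh5 (-0.9996) and Mcam (-0.67), and Fyb (-0.48) and Cyth1 (-0.32). Against sham, DNCB+HY209 gave no further call in these lists, with Itgb5 at 0.90, Itgax at 0.61, Mcam at 1.03, Cdh5 at 1.20, Cyth1 at 0.92 and Rassf5 at 1.13. Unlike those of the members, the calls of these genes and of the cell type markers were not followed through the alternative fits.

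The genes whose pattern over the 8 arrays was most like a member's are given by Pearson r among 12413 other genes, with no test, since the points share groups and spike-in level. For Icam1 they were 2610528A11Rik, Aprt and Thbd, the thrombomodulin gene, each at 0.995, and 565 genes exceeded 0.9. For Icam2 they were Il6st (0.985), the cytokine gene Il1b (0.980) and the endothelial receptor gene Tek (0.978), and for Selp Hacd1 (0.986), Parva (0.983) and Cmtm3 (0.981). Itgb2 was most like Shq1 and Mad2l2 (both 0.980) and Zdhhc3 (0.974), and Selplg like Snap23 (0.974), Chrna1 (0.972) and Dtna (0.966). For Itga4 they were Fam167b (0.966), Bid (0.961) and Mylk (0.956), with 7 genes over 0.9, and for Vcam1 Rnf150 (0.927), Lca5l (0.923) and Drd4 (0.913), with 4.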

How the data were processed

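Total RNA of 8 skin samples was amplified from the 3' end and hybridized to Affymetrix arrays, per the labels' protocols. The deposited values are log2 signals, 1 per probe set and array. For their making, the submitters' processing notes list the tools Affymetrix Expression Console and MAS5. How arrays were scaled to each other is not given in any source used here. The labels name a smaller array type than the table's probe sets match. The table held 45101 probe sets, of which 64 controls were left out, 34945 had 1 symbol and 932 several. Genes were represented by their brightest probe set above the array median on at least 2 arrays (12420 genes), and probe sets were also tested one by one with no filter (45037). Limma 3.58.1 in R 4.3.3 (lmFit and eBayes with an intensity trend) was run over all 8 arrays, and tested on simulated data. SE is the moderated standard error. The number of arrays limits the precision. Named genes were all members, up to 4 called genes per pathway list or else the 2 of largest moderated t, and the 3 genes most like each member. Cell type marker genes named were the called ones, Laptm5 for its opposite sign, and Was, Ly6g and Mpo as genes not tested. These marker genes were chosen after their values were seen. Members and lists were chosen with earlier results of these data known. Alternatives covered scaling, filters, probe set choice, variance models, covariates, a replicate block and arrays left out.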

Additional observations from a re-analysis of the deposited data

How the results depend on the processing

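For DNCB against sham 1 member (Icam1) was called under the other scalings, filters, probe set choices and variance models and in the fit of the groups compared alone. The count was 0 with the replicate block, 0 with the spike-in covariate, 0 without DNCB array 2 and sham array 2, 3 with the Gapdh covariate (Icam1, Icam2 and Selp) and 0 to 2 with 1 array left out. In the unfiltered fit of every probe set Icam1 had a limma adjusted p = 0.0516. For DNCB+HY209 against sham the count was 0, but 1 after quantile normalization, 1 with array weights and 0 to 1 with 1 array left out, each time Icam1. For DNCB+HY209 against DNCB it was 0 throughout. Itgb2 and Icam2 were not tested under the stricter filter. A sham array left alone was assumed to vary like the other groups. Apart from the fewer arrays or genes in some settings, the cause of these changes was not tested.

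Over all genes, DNCB against sham gave 227 calls in the report's fit, 35 with the replicate block, 16 with the spike-in covariate, 452 with the Gapdh covariate, 7 without DNCB array 2 and sham array 2, and 15 to 352 with 1 array left out. DNCB+HY209 against sham gave 50, then 97 after quantile normalization, 78 after trimmed-mean scaling, 24 with probe sets averaged, 744 with array weights, 16 in the fit of the groups compared alone, 12 with the block, 8 with the spike-in covariate, 8 without DNCB array 2 and sham array 2, and 9 to 287 with 1 array left out.

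The labels do not say whether the replicate numbers pair the arrays. Deviations from the group means of same-numbered DNCB and DNCB+HY209 arrays correlated at 0.12, 0.28 and -0.60. Deviations within so small a group cancel out, so these values depend on each other and cannot decide whether arrays were paired. With the replicate block the Icam1 difference between DNCB and sham was 1.81 (limma adjusted p = 0.0877).

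The following uncalled differences turned sign. For DNCB against sham, Selplg was -0.050 with the spike-in covariate, and Vcam1 was -0.014 after trimmed-mean scaling and -0.059 to 0.32 with 1 array left out. For DNCB+HY209 against DNCB, Selplg was 0.0011 with array weights, 0.12 without DNCB array 2 and sham array 2, and -0.32 to 0.12 with 1 array left out. Vcam1 was -0.11 with probe sets averaged, -0.10 with array weights, -0.045 without DNCB array 2 and sham array 2, and -0.10 to 0.27 with 1 array left out. Icam1 was 0.32 with array weights, 0.087 without DNCB array 2 and sham array 2, and -0.25 to 0.30 with 1 array left out. Itgb2 was 0.21 without DNCB array 2 and sham array 2, and -0.39 to 0.21 with 1 array left out. For DNCB+HY209 against sham, Selplg was -0.061 after trimmed-mean scaling and -0.20 with the spike-in covariate, and Vcam1 was -0.016 with probe sets averaged. Itga4 was 0.049 with arrays centred on the median, 0.050 with array weights, 0.0027 with the replicate block, and -0.18 to 0.13 with 1 array left out.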
